A study of Mus musculus with 9 samples.

Results

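Dual-specificity MAP kinase phosphatases and Sprouty/Spred proteins, the genes that code for the brakes on MAP kinase signalling, were followed across 9 RNA libraries of mouse macrophages. The 10 genes, Dusp1, Dusp2, Dusp4, Dusp5, Dusp6, Dusp10, Dusp16, Spry1, Spry2 and Spred1, were taken by symbol from the 18049 genes of the deposited table, and all 10 were listed. The cells were bone marrow-derived macrophages (BMDM), grown in RPMI medium from C57BL/6 mice aged 8 weeks. No genetic change is named in the labels. One group of 3 libraries received 15d-PGJ2-PC at 1 µM for 6 h, and another 3 received 15d-PGJ2, a cyclopentenone prostaglandin, at 1 µM for 6 h. The 3 control libraries received medium for 6 h. What PC stands for is not said in the labels, and the compound is named here as they write it. Nor do they say whether replicates were separate cultures or separate mice. The p-values therefore reflect the scatter among libraries, some of which may be technical.

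MAP kinases (ERK, JNK and p38) are switched on by phosphates on a threonine and a tyrosine, and the MAP kinase phosphatases remove both. The family divides by place and preference: Dusp1, Dusp2, Dusp4 and Dusp5 act in the nucleus, Dusp6 in the cytoplasm and mainly on ERK, and Dusp10 and Dusp16 mainly on JNK and p38. Sprouty and Spred proteins act further upstream, on the route from growth factor receptors through RAS and RAF to ERK. Many of these genes are themselves switched on by MAP kinase activity, which makes them feedback inhibitors. In macrophages, Dusp1 is best known for shortening p38 and JNK activity after stimulation of Toll-like receptors.

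The libraries held about 5.62 to 5.72 M reads each, estimated from the steps between low values. Libraries of one group correlated at 0.991 to 0.992 on the log2 scale and libraries of different groups at 0.972 to 0.988, across genes, which are not independent replicates. Macrophage markers were high in all libraries except for Cd163, with means of 0.39, 0.31 and 0.457 FPKM in 15d-PGJ2-PC, 15d-PGJ2 and control libraries. The 13 markers, among them Csf1r, Adgre1 and Cd68, summed to 6612 to 6774, 5655 to 6047 and 7346 to 7634 FPKM in the same order. Lyz2 was the largest part of each sum, with means of 3602, 3192 and 3940 FPKM in that order. FPKM scales fragment counts to transcript length and library size, so levels of different genes can be compared. Control libraries also carried more RNA of genes that mark other cells. Stromal markers summed to 10.5 to 10.7 FPKM, 12.0 to 15.6 FPKM and 62.9 to 70.8 FPKM in 15d-PGJ2-PC, 15d-PGJ2 and control libraries. Epidermal markers summed to 3.08 to 5.09, 4.52 to 6.62 and 25.9 to 30.4 FPKM in the same order of groups, and erythroid markers to 0 to 0.91, 0.33 to 0.76 and 19.6 to 31.8 FPKM. The collagen gene Col1a1, a stromal marker above 1 FPKM in all 9 libraries, had 3.26 to 3.81 FPKM with 15d-PGJ2-PC, 3.71 to 4.51 FPKM with 15d-PGJ2, and 12.2 to 14.7 FPKM in control libraries. The keratins Krt1, Krt5, Krt14 and Krt15 were listed at 0 in every treated library. Sfn, another epidermal marker, had 2.24 to 3.61 FPKM with 15d-PGJ2-PC, 3.82 to 5.75 FPKM with 15d-PGJ2 and 3.02 to 3.48 FPKM in control libraries. Its range with 15d-PGJ2 lay above that of control, against its list sum, and Sfn was the largest part of that sum in every treated library. Muscle markers summed to 0, 0.18 to 0.57 and 2.09 to 2.19 FPKM, neutrophil markers to 24.6 to 29.6, 15.9 to 19.8 and 32.7 to 35.1 FPKM, and lymphocyte markers to 3.39 to 4.25, 2.14 to 3.19 and 2.52 to 3.46 FPKM, in the same order of groups. The neutrophil marker Mpo went against its list sum, with means of 1.99, 1.69 and 0.0933 FPKM in that order.

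Dusp1 was the most abundant of the 10 genes in every group, followed by Dusp2 and then Spred1, and the ranges of these 3 genes did not overlap within any group. In 15d-PGJ2-PC libraries Dusp6 (5.22 ± 0.962 FPKM, SD, n = 3) and Dusp4 (5.18 ± 0.961 FPKM) came next, with overlapping ranges. In 15d-PGJ2 libraries Dusp4 (6.71 ± 0.579 FPKM) came next, and the ranges of Dusp4 and Dusp6, of Dusp6 and Dusp5, and of Dusp5 and Dusp16 overlapped as neighbours in the order. In control libraries Dusp6 (9.60 ± 0.352 FPKM) held the place after Spred1 with no overlap, and Dusp16 and Dusp4 followed it with overlapping ranges. Spry2, Dusp10 and Spry1 closed the order in all 3 groups.

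**Figure D1:**
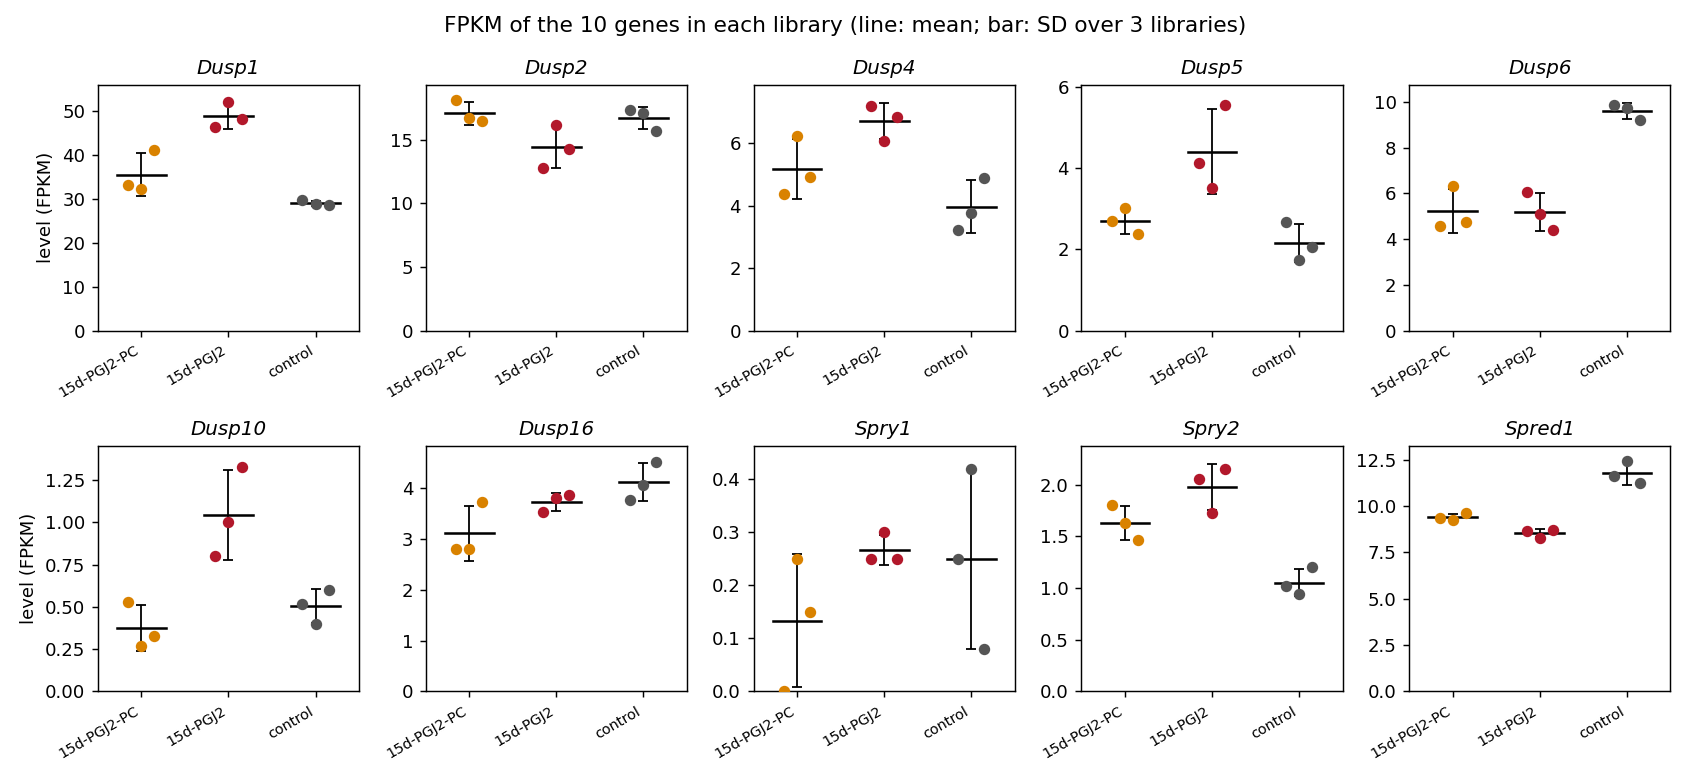
Level in FPKM (y axis, linear, starting at 0 and scaled per gene) of each of the 10 genes in the 15d-PGJ2-PC, 15d-PGJ2 and control libraries (x axis). Points are single libraries, horizontal lines group means and vertical bars the SD over 3 libraries. Dusp6 and Spred1 were higher in every control library than in any treated library, and Dusp1 was highest in the 15d-PGJ2 libraries, at 46.3 to 52.1 FPKM.

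Among the nuclear phosphatases, Dusp1, Dusp4 and Dusp5 rose in 15d-PGJ2 libraries, and of these Dusp1 also rose in 15d-PGJ2-PC libraries. Dusp1 had 33.2, 32.2 and 41.2 FPKM in 15d-PGJ2-PC libraries, 46.3, 52.1 and 48.2 FPKM in 15d-PGJ2 libraries, and 29.7, 28.8 and 28.5 FPKM in control libraries. The 3 groups did not overlap, and replicate 3 stood above the others among the 15d-PGJ2-PC libraries. Relative to control, Dusp1 rose by 0.28 on the log2(FPKM + 1) scale with 15d-PGJ2-PC (SE 0.08, adjusted p 0.0328) and by 0.73 with 15d-PGJ2 (SE 0.08, adjusted p 3.74e-05), by limma's moderated test with Benjamini-Hochberg adjustment over 11309 genes. The mean level with 15d-PGJ2 was 1.68 times that of control. The rise with 15d-PGJ2-PC missed the threshold in 7 of 17 alternatives: without 15d-PGJ2-PC replicate 3 it was 0.17 with an adjusted p of 0.0749, and with control replicate 1, 2 or 3 left out the adjusted p was 0.0623 to 0.084. Between the compounds, Dusp1 was lower with 15d-PGJ2-PC than with 15d-PGJ2, by a log2 difference of -0.46 (95% interval -0.64 to -0.27, adjusted p 0.00324).

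Dusp4, a nuclear phosphatase of ERK and JNK, had 4.37, 6.24 and 4.92 FPKM in 15d-PGJ2-PC libraries, 7.20, 6.07 and 6.85 FPKM in 15d-PGJ2 libraries, and 3.23, 3.77 and 4.90 FPKM in control libraries. All 15d-PGJ2 libraries lay above all control libraries, while the 15d-PGJ2-PC libraries overlapped both other groups. Dusp4 rose with 15d-PGJ2 (log2 fold change 0.64, SE 0.14, adjusted p 0.00369). With 15d-PGJ2-PC the log2 fold change was 0.32 (adjusted p 0.134), with 0.45 (adjusted p 0.0427) without control replicate 3, 0.21 (0.366) without control replicate 1 and 0.20 (0.379) without 15d-PGJ2-PC replicate 2. The difference between the compounds, -0.33 (95% interval -0.65 to -0.01, adjusted p 0.142), did not pass.

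Dusp5, a nuclear phosphatase specific for ERK, had 2.69, 3.02 and 2.39 FPKM in 15d-PGJ2-PC libraries, 4.13, 3.52 and 5.57 FPKM in 15d-PGJ2 libraries, and 2.67, 1.74 and 2.06 FPKM in control libraries. The 15d-PGJ2 libraries stood above all others, and the 15d-PGJ2-PC and control libraries overlapped. Dusp5 rose with 15d-PGJ2 (log2 fold change 0.77, SE 0.16, adjusted p 0.00229), to a mean 2.04 times that of control, and had a log2 fold change of 0.24 with 15d-PGJ2-PC (adjusted p 0.312). It was lower with 15d-PGJ2-PC than with 15d-PGJ2 by -0.53 (95% interval -0.88 to -0.18, adjusted p 0.0373), a call that was lost in 8 of 16 alternatives, including any single 15d-PGJ2-PC library left out (adjusted p 0.0546 to 0.11) and 15d-PGJ2 replicate 1 or 3 left out (0.0686 and 0.13). About 24.0 to 76.7 reads stood behind a value of Dusp5. An annotated transcript, AC137853.2, overlaps an exon of Dusp5 on the opposite strand, and the sources used here do not state that reads were counted by strand.

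Dusp2, a nuclear phosphatase found mainly in blood cells, had 18.1, 16.7 and 16.4 FPKM in 15d-PGJ2-PC libraries, 12.8, 16.2 and 14.3 FPKM in 15d-PGJ2 libraries, and 17.3, 17.1 and 15.7 FPKM in control libraries. It passed in no comparison: the log2 fold change was 0.03 with 15d-PGJ2-PC (adjusted p 0.821) and -0.20 with 15d-PGJ2 (adjusted p 0.0691), and the difference between the compounds was 0.23 (95% interval 0.05 to 0.42, adjusted p 0.0746). Without 15d-PGJ2 replicate 2, the highest of its group, the last 2 values were -0.28 (adjusted p 0.0159) and 0.31 (adjusted p 0.0233).

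The promoters of Dusp1 and Dusp5 are shown because these genes rose with 15d-PGJ2 and were lower with 15d-PGJ2-PC than with 15d-PGJ2; they were chosen after the values were seen. The sequences are RefSeq windows on GRCm38.p6, from 250 bases before to 50 bases after the annotated start, read 5′ to 3′ on the gene's strand. Dusp1 lies at chr17:26505591-26508472 on the minus strand and its window at chr17:26508423-26508722. Dusp5 lies at chr19:53529145-53541809 on the plus strand and its window at chr19:53528895-53529194. In the Dusp1 window, capitals mark a CRE (TGACGTCA, the cAMP response element, bases -143 to -136) and a run formed by an Nrf2 motif (TGACNNNGC, on the opposite strand, -133 to -125) and an E-box (CACGTG, -126 to -121), which overlap. In the Dusp5 window, capitals mark an Nrf2 motif on the opposite strand (-111 to -103) and a pair of adjoining CArG boxes, the core of serum response elements (-82 to -73 and -72 to -63).
Dusp1 promoter: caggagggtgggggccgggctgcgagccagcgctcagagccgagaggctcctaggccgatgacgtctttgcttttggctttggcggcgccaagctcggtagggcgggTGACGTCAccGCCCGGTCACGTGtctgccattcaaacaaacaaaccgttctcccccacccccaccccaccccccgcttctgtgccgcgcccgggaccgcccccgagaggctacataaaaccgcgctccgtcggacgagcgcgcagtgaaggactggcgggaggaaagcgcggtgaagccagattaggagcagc
Dusp5 promoter: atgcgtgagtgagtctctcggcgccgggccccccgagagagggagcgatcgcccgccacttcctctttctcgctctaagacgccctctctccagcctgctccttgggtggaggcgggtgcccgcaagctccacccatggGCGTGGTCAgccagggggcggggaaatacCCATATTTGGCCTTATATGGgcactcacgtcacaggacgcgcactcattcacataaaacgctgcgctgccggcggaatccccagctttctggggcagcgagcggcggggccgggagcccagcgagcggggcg
Searched on both strands, the CRE was in 1.79% of 32851 RefSeq windows of this length and in 1 of 9 windows of the 10 genes, that of Dusp1. The Nrf2 motif was in 12.4% of all windows and in 2 of the 9, and the E-box in 7.15% of all windows and in 2 of the 9, Dusp1 and Dusp2. A CArG box was in 1.63% of all windows, and 0.0183% of windows held 2 or more; this motif was added after the sequences were seen. The shorter CRE core TGACG, which the CRE contains, was in 20.8% of all windows and in those of Dusp1, Dusp2, Dusp5 and Dusp16. A looser serum response pattern, which every CArG box fits, was in 73.3% of all windows and in 8 of the 9. The AP-1 site TGANTCA (7.81% of all windows) and the heat shock element (0.603%) were in none of the 9. A match says only that the letters are in the window.

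Dusp6, the cytoplasmic ERK phosphatase and a standard transcript readout of ERK activity, fell with both compounds, to means of 5.22 ± 0.962 FPKM with 15d-PGJ2-PC and 5.20 ± 0.829 FPKM with 15d-PGJ2, against 9.60 ± 0.352 FPKM in control libraries (SD, n = 3 each). Dusp6 had 4.59, 6.33 and 4.75 FPKM in 15d-PGJ2-PC libraries, 6.07, 5.10 and 4.42 FPKM in 15d-PGJ2 libraries, and 9.86, 9.74 and 9.20 FPKM in control libraries. Every treated library was below every control library, and the treated groups overlapped. The log2 fold change was -0.78 with 15d-PGJ2-PC (SE 0.12, adjusted p 0.000841) and -0.78 with 15d-PGJ2 (SE 0.12, adjusted p 0.000402). Both falls passed in all 17 alternatives. The difference between the compounds was 0.00 (95% interval -0.27 to 0.28, adjusted p 0.99). In bulk samples, fewer cells of a type and less RNA per cell cannot be told apart. Beside this fall stand the lower sums of stromal, epidermal and erythroid markers in both treated groups and those of the macrophage markers. Of 12 macrophage markers tested, 8 fell with 15d-PGJ2-PC, where 14.1% of all genes fell, and 11 with 15d-PGJ2, where 25.0% fell. The median log2 fold change of the 12 was -0.21 with 15d-PGJ2-PC and -0.50 with 15d-PGJ2. The part of these marker changes in the fall of Dusp6 was not tested.

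Dusp16, a phosphatase of JNK and p38 that is anchored in the cytoplasm, had 2.80, 2.80 and 3.73 FPKM in 15d-PGJ2-PC libraries, 3.53, 3.81 and 3.86 FPKM in 15d-PGJ2 libraries, and 3.77, 4.07 and 4.51 FPKM in control libraries. The 15d-PGJ2-PC libraries were all below the control libraries, with replicate 3 the closest. No comparison passed: the log2 fold change was -0.32 with 15d-PGJ2-PC (SE 0.11, adjusted p 0.0573) and -0.11 with 15d-PGJ2 (adjusted p 0.454), and the compounds differed by -0.21 (95% interval -0.46 to 0.04, adjusted p 0.225). The first of these passed in 4 of 16 alternatives: without 15d-PGJ2-PC replicate 3 (-0.43, adjusted p 0.0184), after quantile normalization (0.0485), without the intensity trend (0.0399) and with the replicate number as a block (0.0462).

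Dusp10, the other phosphatase of JNK and p38, reached 1 FPKM in 2 of the 9 libraries and was not tested in the fit, which asked for 1 FPKM in at least 3. It had 0.53, 0.27 and 0.33 FPKM in 15d-PGJ2-PC libraries, 0.80, 1.00 and 1.33 FPKM in 15d-PGJ2 libraries, and 0.52, 0.40 and 0.60 FPKM in control libraries. The 15d-PGJ2 libraries stood above all 6 others, on about 4.21 to 20.7 reads per value. A 2-sided exact permutation test gave p = 0.1 for 15d-PGJ2 against control and for the compounds against each other, the smallest p that 3 against 3 libraries allow, and p = 0.3 for 15d-PGJ2-PC against control. With no filter on low values, limma gave a log2 fold change of 0.43 with 15d-PGJ2 (adjusted p 0.0213) and a difference of -0.57 between the compounds (adjusted p 0.0148).

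Summed over the 7 phosphatase genes, levels ran from 66.3 to 73.8 FPKM in 15d-PGJ2-PC libraries, 80.8 to 87.8 FPKM in 15d-PGJ2 libraries and 65.5 to 67.0 FPKM in control libraries. The 15d-PGJ2 libraries stood apart, and the other groups overlapped. Dusp1 made up 47.6% to 55.9% of this sum in 15d-PGJ2-PC libraries, 57.0% to 59.3% in 15d-PGJ2 libraries and 43.6% to 44.3% in control libraries. Without Dusp1, the sum of the other 6 was 32.6 to 35.4 FPKM with 15d-PGJ2-PC, 34.5 to 36.3 FPKM with 15d-PGJ2 and 36.8 to 37.3 FPKM in control libraries. The level of Dusp1 was 5.08 to 8.67 times that of Dusp6 in 15d-PGJ2-PC libraries, 7.62 to 10.9 times in 15d-PGJ2 libraries and 2.96 to 3.10 times in control libraries.

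**Figure D2:**
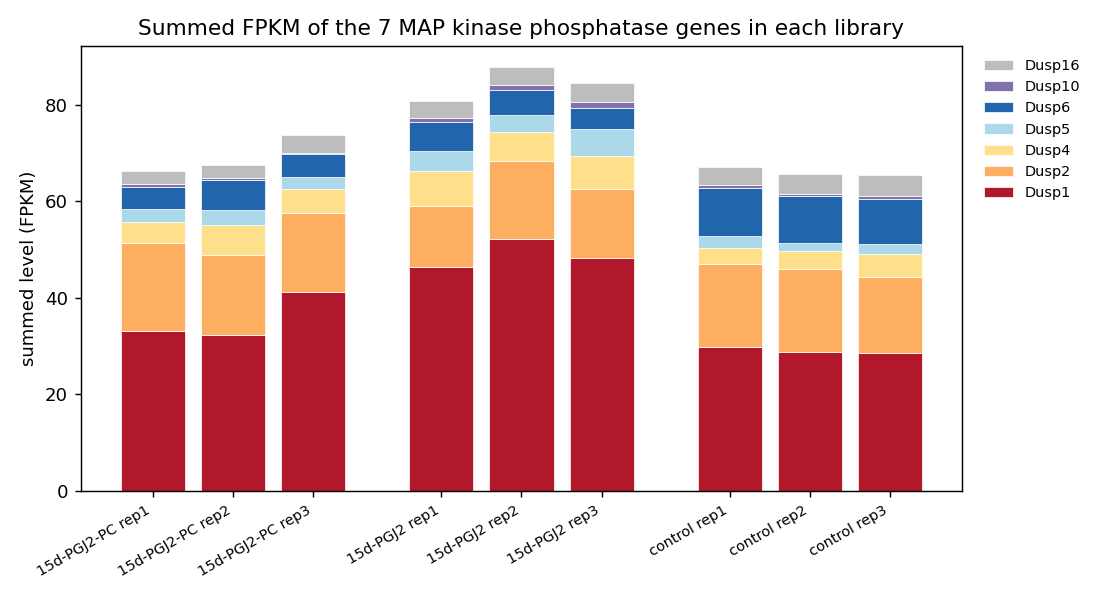
Summed level in FPKM (y axis, linear, starting at 0) of the 7 MAP kinase phosphatase genes in each library (x axis), with each gene as a layer. The sums were 66.3 to 73.8 FPKM with 15d-PGJ2-PC, 80.8 to 87.8 FPKM with 15d-PGJ2 and 65.5 to 67.0 FPKM in control libraries, and Dusp1 was the thickest layer in all 9.

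Of the Sprouty and Spred genes, Spred1 fell with both compounds and Spry2 rose with 15d-PGJ2. Spred1, which restrains RAS together with neurofibromin, had 9.34, 9.24 and 9.60 FPKM in 15d-PGJ2-PC libraries, 8.65, 8.27 and 8.68 FPKM in 15d-PGJ2 libraries, and 11.6, 12.4 and 11.3 FPKM in control libraries. The 3 groups did not overlap. The log2 fold change was -0.29 with 15d-PGJ2-PC (SE 0.06, adjusted p 0.00579) and -0.42 with 15d-PGJ2 (SE 0.06, adjusted p 0.000301), and both passed in all 17 alternatives. The compounds differed by 0.12 (95% interval -0.02 to 0.27, adjusted p 0.205). The marker sums that are lower in treated libraries, given beside Dusp6, stand beside this fall too, and their part in it was not tested. The same holds for every fall against control of the other genes given below.

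Spry2, an inhibitor of growth factor receptor signalling to ERK, had 1.80, 1.63 and 1.47 FPKM in 15d-PGJ2-PC libraries, 2.06, 1.73 and 2.15 FPKM in 15d-PGJ2 libraries, and 1.02, 0.94 and 1.20 FPKM in control libraries. All 6 treated libraries lay above all control libraries, and the treated groups overlapped. Spry2 rose with 15d-PGJ2 (log2 fold change 0.54, SE 0.12, adjusted p 0.00446). With 15d-PGJ2-PC the log2 fold change was 0.36 (SE 0.12, adjusted p 0.053), and it passed in 3 of 16 alternatives: after quantile normalization (adjusted p 0.0362), without limma's intensity trend (0.0112) and with a pseudocount of 0.1 (log2 fold change 0.59, adjusted p 0.0467). The difference between the compounds was -0.18 (95% interval -0.45 to 0.10, adjusted p 0.358). About 10.9 to 24.9 reads stood behind each value.

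Spry1, the other Sprouty gene of the 10, was at the edge of detection, with 0, 0.25 and 0.15 FPKM in 15d-PGJ2-PC libraries, 0.25, 0.30 and 0.25 FPKM in 15d-PGJ2 libraries, and 0.25, 0.42 and 0.08 FPKM in control libraries. These values stand for at most about 5.77 reads, no library reached 1 FPKM, and the groups overlapped. The 2-sided exact permutation p was 0.5 with 15d-PGJ2-PC, 0.9 with 15d-PGJ2 and 0.3 between the compounds, where 0.1 is the smallest p that 3 against 3 libraries allow. With no filter on low values, limma's adjusted p was 0.478, 0.893 and 0.449 in the same order. The annotated gene Gm42922 overlaps an exon of Spry1 on the opposite strand. Summed over Spry1, Spry2 and Spred1, levels were 11.1 to 11.2 FPKM in 15d-PGJ2-PC libraries, 10.3 to 11.1 FPKM in 15d-PGJ2 libraries and 12.5 to 13.8 FPKM in control libraries.

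The 10 genes lie apart in the genome. On GRCm38.p6, Dusp2 is at chr2:127336159-127338377 and Spred1 at chr2:117121071-117182279, both on the plus strand of the same chromosome. Dusp4 is at chr8:34807610-34819894, Dusp6 at chr10:99263231-99267489, Dusp10 at chr1:184034381-184075636 and Spry1 at chr3:37639947-37644599, all on the plus strand. Dusp16 at chr6:134715468-134807063 and Spry2 at chr14:105891947-105896819 are on the minus strand.

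Counted together, 3 of the 8 tested genes passed with 15d-PGJ2-PC against control (37.5%, 1 rose and 2 fell), against 27.8% of all genes tested in that comparison. With 15d-PGJ2 against control, 6 of 8 passed (75.0%, 4 rose and 2 fell), against 47.2% of all genes. Between the compounds, 2 of 8 passed, both lower with 15d-PGJ2-PC (25.0%), against 20.6% of all genes. With counts this small, these shares say little about the family as a whole. The libraries of the groups compared did not overlap in 5 of 8 genes with 15d-PGJ2-PC against control, in 6 of 8 with 15d-PGJ2 against control and in 4 of 8 between the compounds. The share of all genes without overlap was 41.8%, 55.1% and 37.3% in the same order. The median log2 fold change of the 8 genes was 0.13 with 15d-PGJ2-PC and 0.21 with 15d-PGJ2, beside -0.0038 and -0.016 over all genes. Both comparisons use the same control libraries. The median difference between the compounds was -0.19, beside 0.016 over all genes.

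**Figure D3:**
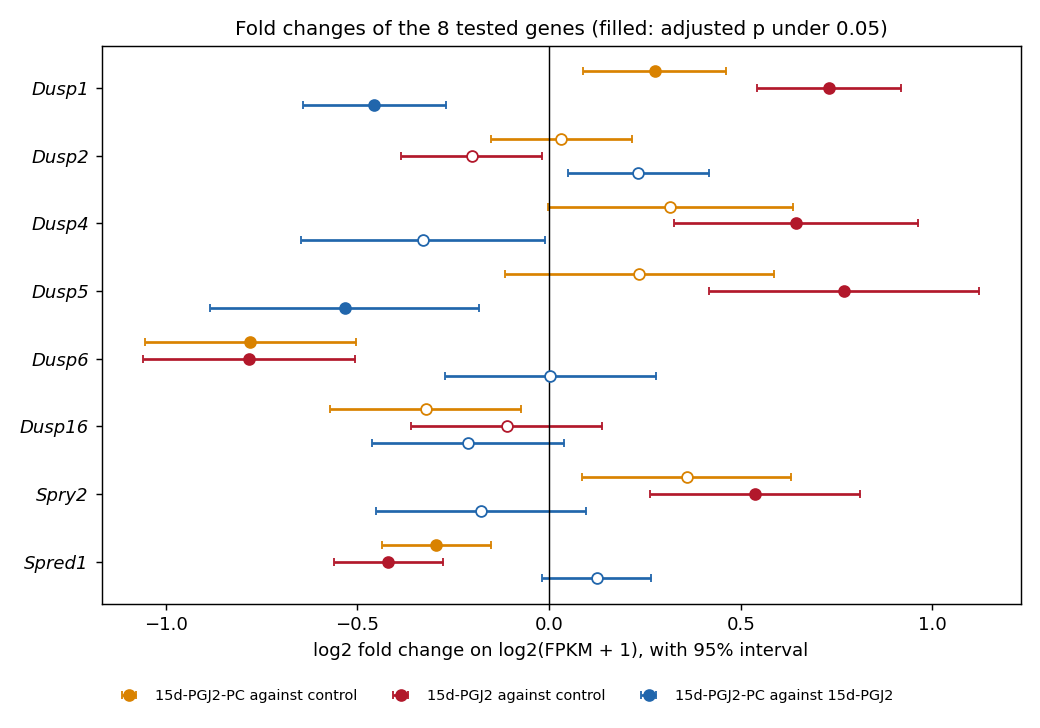
Log2 fold change on log2(FPKM + 1) (x axis) of the 8 tested genes (y axis) for each compound against control (15d-PGJ2-PC in orange, 15d-PGJ2 in red) and for the compounds against each other (blue, 15d-PGJ2-PC minus 15d-PGJ2). Points are estimates from limma, bars 95% intervals, and filled points have an adjusted p under 0.05. Dusp6 fell by 0.78 with both compounds, while the interval of Dusp1 between the compounds ran from -0.64 to -0.27.

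Genes with 9 values most like each gene's were sought among tested genes with a mean of at least 5 FPKM. Rik, Gm, LOC, microRNA and snoRNA names and names that begin with a digit were left out. Each gene was set to its own control mean in log2(FPKM + 1), and those with the smallest root mean square (RMS) difference were named. For Dusp1 they were BC017643 (RMS 0.083), Gk (0.087) and Crtc1 (0.091). For Dusp6 they were Lbh (0.129), Pilra (0.136) and Sgk1 (0.137), and Lbh had means of 7.86, 7.42 and 14.4 FPKM in 15d-PGJ2-PC, 15d-PGJ2 and control libraries. For Spred1 they were Stau1 (0.036), Txnrd2 (0.043) and Cotl1 (0.043). The nearest were Tmem242 for Dusp2 (0.054), Angptl6 for Dusp4 (0.090), Ivd for Dusp5 (0.140) and Vps26a for Spry2 (0.077).

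The other genes of the phosphatase, Sprouty and Spred families split in the same comparisons. Dusp7, the closest relative of Dusp6 in place and target, had 7.94, 7.96 and 7.60 FPKM in 15d-PGJ2-PC libraries, 6.23, 5.33 and 5.64 FPKM in 15d-PGJ2 libraries, and 15.2, 16.3 and 14.6 FPKM in control libraries. The 3 groups did not overlap. Dusp7 fell with 15d-PGJ2-PC (log2 fold change -0.89, SE 0.07, adjusted p 9.85e-06) and with 15d-PGJ2 (-1.28, SE 0.07, adjusted p 1.71e-07), and was higher with 15d-PGJ2-PC than with 15d-PGJ2 by 0.39 (95% interval 0.23 to 0.56, adjusted p 0.00367). Spred2, a relative of Spred1, had 9.18, 9.52 and 9.99 FPKM in 15d-PGJ2-PC libraries, 9.33, 8.72 and 10.6 FPKM in 15d-PGJ2 libraries, and 6.31, 6.61 and 5.13 FPKM in control libraries. Every treated library was above every control library, the opposite order to Spred1. Spred2 rose by 0.60 with 15d-PGJ2-PC (SE 0.10, adjusted p 0.00108) and by 0.59 with 15d-PGJ2 (SE 0.10, adjusted p 0.00058), and the compounds differed by 0.01 (95% interval -0.21 to 0.23, adjusted p 0.973). Spred3, at means of 1.56, 1.08 and 1.50 FPKM in 15d-PGJ2-PC, 15d-PGJ2 and control libraries, passed in no comparison. Dusp8, Dusp9, Spry3 and Spry4 fell short of the level needed for the test, with means between 0.0133 and 0.867 FPKM in every group. With no filter on low values, limma gave Dusp8 and Spry3 log2 fold changes of 0.52 and 0.44 with 15d-PGJ2 (adjusted p 0.0214 and 0.0223). With 15d-PGJ2-PC they had 0.40 and 0.36 (adjusted p 0.0946 and 0.0729), and Dusp9 and Spry4 passed with neither compound. Under the filter, 3 of these 7 genes were tested, and 1 rose and 1 fell with either compound. That is 66.7% of only 3 genes, against 27.8% of all genes with 15d-PGJ2-PC and 47.2% with 15d-PGJ2.

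Of 15 atypical dual-specificity phosphatases, small relatives of which many act on other substrates, 9 were tested and 2 passed with either compound (22.2%, against 27.8% of all genes with 15d-PGJ2-PC and 47.2% with 15d-PGJ2). Dusp11, a phosphatase of RNA ends, rose (log2 fold change 0.26 with 15d-PGJ2-PC and 0.30 with 15d-PGJ2), and Dusp22, a phosphatase of the JNK pathway, fell (-0.54 and -0.63 in the same order). Neither Dusp13 nor Dusp19 passed in any comparison. Between the compounds, 0 genes of the list passed by limma, against 20.6% of all genes, and 1 had an unadjusted p under 0.05. Of 11 other brakes on RAS and MAP kinases, 8 were tested. With 15d-PGJ2-PC 1 rose and 2 fell (37.5% passed, against 27.8% of all genes), and with 15d-PGJ2 3 rose and 2 fell (62.5%, against 47.2% of all genes). Ptpn7, a tyrosine phosphatase of ERK and p38 in blood cells, averaged 21.0 ± 0.570 FPKM with 15d-PGJ2-PC, 16.9 ± 2.35 FPKM with 15d-PGJ2 and 31.8 ± 1.17 FPKM in control libraries (SD, n = 3 each), and fell by 0.57 (adjusted p 0.000408) and 0.88 (adjusted p 7.25e-06) in the same order of compounds. Rasa3, a GTPase-activating protein that switches RAS proteins off, fell by 0.25 and 0.47. Errfi1, an inhibitor of the EGF receptor, averaged 2.82 ± 0.351 FPKM with 15d-PGJ2-PC, 4.65 ± 0.456 FPKM with 15d-PGJ2 and 2.17 ± 0.399 FPKM in control libraries. It rose with 15d-PGJ2 (log2 fold change 0.84, adjusted p 0.000251), had 0.27 with 15d-PGJ2-PC (adjusted p 0.138), and was lower with 15d-PGJ2-PC than with 15d-PGJ2 by -0.57 (adjusted p 0.00852). Pebp1, the RAF inhibitor protein, rose by 0.10 with 15d-PGJ2-PC (adjusted p 0.0477, missed in 12 of 17 alternatives) and by 0.17 with 15d-PGJ2.

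Genes of the cascade that these brakes act on, not all of them kinases, moved in both directions. Of 34 genes of the RAS, RAF and MAP kinase cascade, 32 were tested: 4 rose and 7 fell with 15d-PGJ2-PC, and 11 rose and 12 fell with 15d-PGJ2, where 13.8% rose and 14.1% fell of all genes with 15d-PGJ2-PC and 22.2% rose and 25.0% fell with 15d-PGJ2. The list medians were -0.06 and 0.04. Map2k3, a kinase that activates p38, averaged 35.0 ± 1.61 FPKM with 15d-PGJ2-PC, 45.2 ± 2.96 FPKM with 15d-PGJ2 and 17.9 ± 0.982 FPKM in control libraries. It rose by 0.93 (adjusted p 2.26e-06) and 1.29 (adjusted p 4.9e-08), and the compounds differed by -0.36 (95% interval -0.50 to -0.22, adjusted p 0.00225). Grb2, the adaptor that brings the RAS activator SOS to receptors, fell by 0.15 with 15d-PGJ2-PC and by 0.45 with 15d-PGJ2, and Map3k3, an upstream kinase, fell by 0.25 and 0.24.

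Of 10 kinases that MAP kinases activate, all were tested: 4 fell with 15d-PGJ2-PC, where 14.1% of all genes fell, and 4 fell and 1 rose with 15d-PGJ2 (5 of 10 passed, near the 47.2% of all genes). Mapkapk2, the p38 target that stabilises cytokine mRNAs, averaged 85.8 ± 1.64 FPKM with 15d-PGJ2-PC, 75.6 ± 3.26 FPKM with 15d-PGJ2 and 103 ± 1.54 FPKM in control libraries and fell by 0.25 (adjusted p 0.000749) and 0.44 (adjusted p 6.14e-06). Rps6ka4 (activated by ERK and p38), Rps6ka1 (activated by ERK) and Mknk1, a kinase of a translation initiation factor, also fell with either compound, Rps6ka4 by 0.40 and 0.39, Rps6ka1 by 0.15 and 0.23, and Mknk1 by 0.17 and 0.33. With 15d-PGJ2-PC the fall of Rps6ka1 was lost in 7 and that of Mknk1 in 12 of 17 alternatives.

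Transcripts that MAP kinase signalling is known to induce did not move one way. Of 17 such genes 13 were tested: 5 rose and 4 fell with 15d-PGJ2-PC, 7 rose and 3 fell with 15d-PGJ2 (69.2% and 76.9% passed, against 27.8% and 47.2% of all genes), and between the compounds 1 was higher and 6 were lower with 15d-PGJ2-PC, where 12.3% of all genes were higher and 8.30% lower. The list medians were -0.01, 0.24 and -0.18. Etv5, a transcription factor that ERK induces together with Dusp6 in many cells, averaged 4.11 ± 0.302 FPKM with 15d-PGJ2-PC, 3.06 ± 0.345 FPKM with 15d-PGJ2 and 7.65 ± 0.399 FPKM in control libraries, and fell by 0.76 (adjusted p 0.000153) and 1.09 (adjusted p 3.87e-06). Ccnd1, cyclin D1, averaged 3.24 ± 0.435 FPKM, 2.40 ± 0.275 FPKM and 8.05 ± 1.07 FPKM in 15d-PGJ2-PC, 15d-PGJ2 and control libraries and fell by 1.09 and 1.41. Phlda1 and Fosl1, an AP-1 subunit, went the other way. Phlda1 averaged 3.68 ± 0.715 FPKM with 15d-PGJ2-PC, 12.1 ± 2.15 FPKM with 15d-PGJ2 and 1.41 ± 0.591 FPKM in control libraries, and rose by 0.98 (adjusted p 0.00288) and 2.46 (adjusted p 1.52e-06). Fosl1 averaged 2.02 ± 0.185 FPKM, 5.34 ± 0.773 FPKM and 0.740 ± 0.320 FPKM in the same order and rose by 0.81 and 1.88. Ier3, an early response gene, averaged 36.5 ± 2.98 FPKM, 48.7 ± 4.69 FPKM and 19.1 ± 0.679 FPKM in the same order and rose by 0.90 and 1.30. Between the compounds, Phlda1 differed by -1.48 (adjusted p 0.000286), Fosl1 by -1.06 (adjusted p 0.000674) and Ier3 by -0.40 (adjusted p 0.00374).

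**Figure D4:**
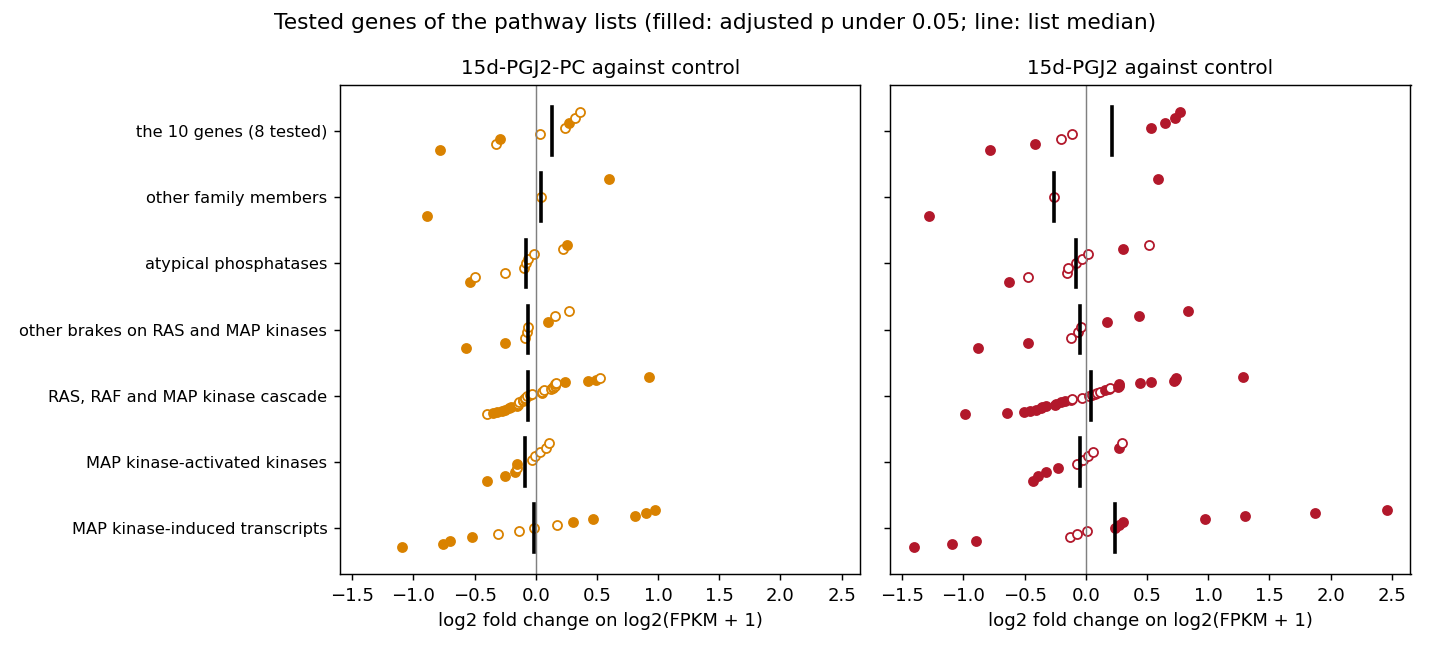
Log2 fold change on log2(FPKM + 1) (x axis) of every tested gene of 7 lists (y axis), for 15d-PGJ2-PC against control (left) and 15d-PGJ2 against control (right). Points are genes, filled where the adjusted p was under 0.05, and vertical bars are list medians. Every list with 8 or more tested genes had genes on both sides of 0 in both panels, with Phlda1 farthest to the right at 2.46 with 15d-PGJ2.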

How the data were processed

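The authors deposited 1 table of FPKM values with 2 decimals for 18049 genes, per the file headers. The build was mm10 and BWA was among the tools, per the submitters' processing notes; the tool that counted reads is not given in the sources used here. Trizol was used for RNA and an Illumina TruSeq RNA kit for the libraries, per the labels' protocols. A spreadsheet had turned 23 symbols into dates, which were restored from Entrez numbers. All 9 sample columns were used as deposited. Depth is no column of the table. It was estimated from the steps between low FPKM values as about 5.66 M reads per library, with 61.6% of those values whole within 0.06 read, too few for a count test. Reads per value given in the text are such estimates.

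Tested were the 11309 genes that reached 1 FPKM in 3 or more of the 9 libraries, on log2(FPKM + 1), which understates fold changes of low genes. Fits used limma 3.58.1 under R 4.3.3: a 2-sided moderated test, with the prior variance following mean level and the residual variance shared by the 9 libraries. Benjamini-Hochberg adjustment ran over all genes of a contrast, and 0.05 was the threshold. Adjusted p-values come from this fit unless an alternative is named. The script was tested on simulated data. Dusp10 and Spry1, under the filter, have 2-sided exact permutation tests. The 10 genes, the pathway lists and the markers were chosen with earlier results of these data known. Named from each list were the up to 3 genes with the smallest p in each contrast against control and, whatever their result, the 7 other family members. Some genes that these rules take are not reported here. Alternatives changed the pseudocount, the filter, the scaling, the trend, the libraries in the fit and the replicate block, and left out each library in turn. Coordinates and promoter windows are RefSeq's on GRCm38.p6; 9 of the 10 genes have a window in the table used.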

Additional observations from a re-analysis of the deposited data

How the results depend on the processing

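Over all alternatives, 367 of 399 values for the 10 genes kept their direction and their side of the threshold, 15 missed it, 10 newly passed and 7 changed sign. Several alternatives cannot change a fold change, only its p-value, so kept direction says nothing there. They are another filter, no trend, only the 6 libraries compared, the block, and a library left out of the group outside the comparison. With 15d-PGJ2-PC against control, 3 genes passed, 5 after quantile normalization and 2 to 3 with a library left out. Dusp1 missed the threshold there with no filter (adjusted p 0.0657), without the trend (0.0628) and with only the 6 libraries compared (0.052). With 15d-PGJ2 against control, 6 passed, and 6 to 7 with a library left out. A filter of 5 FPKM leaves Dusp5 and Spry2, which passed here, untested. Between the compounds, 2 passed, 1 with a filter of 5 FPKM (which leaves Dusp5 untested), 1 with only the 6 libraries compared, 1 with the replicate block and 1 to 3 with a library left out. Deviations of same-numbered libraries correlated at -0.043 to 0.052 over 9 pairs, and 6 of 9 libraries correlated best with their own number. These values are a hint from the data and not the design, and do not settle whether the replicate numbers pair the libraries. The block took the adjusted p of Dusp5 between the compounds to 0.0549 and that of Dusp16 with 15d-PGJ2-PC to 0.0462. The cause of these changes was not tested.

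Sign changes were all in values near 0 that did not pass. Dusp2 with 15d-PGJ2-PC ran from -0.0092 to 0.058 with a library left out. Dusp6 between the compounds was -0.018 after quantile normalization, -0.013 after median ratio scaling and -0.12 to 0.10 with a library left out. Spred3 with 15d-PGJ2-PC ran from -0.054 to 0.13, and Dusp13 from -0.25 to 0.11, with a library left out, and Dusp13 was 0.068 after quantile normalization. Of 306 list counts, 283 stayed within 1.5 times. With 15d-PGJ2-PC, the 4 MAP kinase-activated kinases became 2 after quantile normalization, without the trend and with the block, and 2 to 4 with a library left out, the 3 other brakes 1 to 2, and the 2 atypical phosphatases 1 to 2. With 15d-PGJ2, the 2 other family members became 4 with no filter and the 5 other brakes 3 with a filter of 5 FPKM. Between the compounds, the 1 MAP kinase-activated kinase became 2 with a filter of 5 FPKM, either other scaling or the block, the 3 other brakes 1 with only 6 libraries and 1 to 3 with a library left out, and the 0 atypical phosphatases 0 to 1. Depth limits Spry1, Dusp10 and Spry2, with at most about 5.77, 20.7 and 24.9 reads per value.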
